A study of Mus musculus with 9 samples.

Results

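The cells described here were principal cells of the mouse caput epididymis that carried the highest share of transcripts from Cst12, Lcn8, Adam28, Teddm2 and Defb48, and they are called Cst12/Lcn8 cells below. They numbered 2859 of 10521 ranked caput cells, or 733 at P42 and 1225 and 901 in replicates 1 and 2 of P56, in a data set of 42087 cells that passed quality control. Caput cells with 300 to 4000 detected genes, at most 20000 UMIs and under 50% mitochondrial UMIs were considered, a UMI being 1 counted transcript molecule. Cells with UMIs of more than 3 of 15 marker genes of other cell types were set aside. Within each library the remaining cells were ranked by the share of their UMIs from the 5 genes above and from 2 further sets of 5 genes. A cell was taken where the Cst12 and Lcn8 set gave its highest percentile and that percentile was at least 70. Cells that met the same conditions with Lcn5, Ntsr2, Defb30, Spag11a and Rnase13 are called Lcn5/Defb30 cells (2591 cells), and those with Lypd8, Defb18, Defb47, Defb45 and Spag11b are called Lypd8/Defb18 cells (2381 cells).

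Principal cells line the epididymal tube and secrete most of the proteins that sperm meet on their way from the testis. They differ in secretory programme from one stretch of the duct to the next, and those of the initial segment and proximal caput depend on factors carried in testicular fluid and on ERK signalling downstream of the receptor Ros1. Lipocalins such as Lcn8 bind small hydrophobic ligands in the lumen, cystatins such as Cst12 belong to a family of cysteine protease inhibitors, and beta-defensins such as Defb48 are small cationic peptides of epithelial defence. Adam28 encodes a disintegrin and metalloprotease, and Teddm2 a membrane protein of the epididymis.

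The study sequenced dissociated cells of caput, corpus and cauda from untreated C57BL/6 mice at 42 days (P42, when the first wave of sperm is in the duct) and at 56 days (P56). The mice carried no engineered allele. Each library was made from the pooled tissue of 5 mice, with 1 pool at P42 and 2 pools at P56, and the 3 segments of a pool came from the same animals. Cells of a library share their mice and their chip, so they were not treated as replicates, and every test below was made on UMIs summed per library. The 3 caput libraries held 33881990 to 50655384 UMIs and gave 6316047, 8473325 and 6806989 UMIs in Cst12/Lcn8 cells, in the order P42, P56 replicate 1 and P56 replicate 2 that is used throughout. The limits on genes, UMIs and mitochondrial UMIs kept 4209 of 4981, 4868 of 4977 and 4910 of 4997 caput barcodes. The kept cells held 29779501, 31671092 and 35192243 UMIs, of 50655384, 33881990 and 37040481. The P42 library thus lost the largest part, and the effect of this on the age results was not tested. No Cst12/Lcn8 cell of one library shared its barcode with one of another.

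The gene starts of 4 of the 5 choosing genes are shown because these genes define the cells. Each window spans 300 bases of the coding strand around the start of the RefSeq gene in GRCm38.p6. Lcn8 lies at chr2:25653118-25656217 and Cst12 at chr2:148789365-148793432, and their windows are chr2:25652868-25653167 and chr2:148789115-148789414 on the plus strand. Teddm2 lies at chr1:153849542-153851195 and Defb48 at chr14:62977524-62984510, with windows chr1:153851146-153851445 and chr14:62984461-62984760 on the minus strand. Adam28 lies at chr14:68604998-68655889. The ETS site AGGAAG, which holds the shorter core GGAA and is bound by factors such as Etv4 and Etv5, was searched on both strands (also as CTTCCT). Matches to the full site would stand in capitals.
Cst12: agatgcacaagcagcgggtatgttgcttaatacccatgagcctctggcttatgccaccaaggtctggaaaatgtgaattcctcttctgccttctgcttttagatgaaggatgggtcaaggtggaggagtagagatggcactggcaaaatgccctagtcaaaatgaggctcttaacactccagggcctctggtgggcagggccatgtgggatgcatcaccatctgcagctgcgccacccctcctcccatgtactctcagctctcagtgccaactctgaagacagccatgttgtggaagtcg
Lcn8: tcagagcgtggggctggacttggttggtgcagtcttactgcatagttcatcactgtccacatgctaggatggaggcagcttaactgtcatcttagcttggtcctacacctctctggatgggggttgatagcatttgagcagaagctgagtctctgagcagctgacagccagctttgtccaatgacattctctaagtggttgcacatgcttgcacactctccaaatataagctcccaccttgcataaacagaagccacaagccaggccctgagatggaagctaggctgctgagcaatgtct
Teddm2: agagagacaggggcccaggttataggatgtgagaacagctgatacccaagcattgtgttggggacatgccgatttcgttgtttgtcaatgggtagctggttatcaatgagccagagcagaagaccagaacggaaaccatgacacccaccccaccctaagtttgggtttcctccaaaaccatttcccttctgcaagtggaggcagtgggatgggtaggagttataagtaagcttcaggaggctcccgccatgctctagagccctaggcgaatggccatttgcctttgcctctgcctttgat
Defb48: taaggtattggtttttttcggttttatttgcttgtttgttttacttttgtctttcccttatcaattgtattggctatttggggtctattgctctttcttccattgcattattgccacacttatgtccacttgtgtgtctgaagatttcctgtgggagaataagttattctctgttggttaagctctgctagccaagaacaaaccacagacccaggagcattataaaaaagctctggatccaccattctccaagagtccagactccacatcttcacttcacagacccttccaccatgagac
The 4 windows held no match, and 35.4% of 32851 RefSeq windows of this length held at least 1. This says only that these letters are not in these windows, all 4 of which hold the shorter core GGAA or, for the other strand, TTCC.

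The 5 choosing genes were abundant in these cells at both ages, and their levels are given as a description, since the cells were chosen by them. The level of Lcn8 in Cst12/Lcn8 cells was 22443, 31940 and 32817 UMIs per 1000000 UMIs of these cells (CPM), the unit of all levels below. Cst12 was at 3218, 5735 and 5692, Adam28 at 7166, 6575 and 7068, Teddm2 at 7846, 9541 and 9462, and Defb48 at 17049, 19694 and 18961. Lcn8, Cst12, Teddm2 and Defb48 were lower in the P42 library than in both P56 libraries, and Adam28 was not. The lowest share of the 5 genes that was taken was also lower at P42 (3.28%, against 6.10% and 6.08%). The ages therefore cannot be compared on these genes. In Lcn5/Defb30 cells Lcn8 was at 4658, 8528 and 5454 and in Lypd8/Defb18 cells at 7395, 14217 and 17454. Macrophages, which are not known to make these proteins, also held such UMIs, with Lcn8 at 8713, 14013 and 14954 and Cst12 at 1133, 1917 and 2371. These reference cells were caput cells with UMIs of at least 4 of 7 macrophage markers (299, 171 and 460 cells). They were not kept apart from the ranked cells, and those with at most 3 of the 15 markers were also ranked. With 0, 1, 2 and 3 markers these were 0, 7, 39 and 57 cells at P42. They were 0, 9, 31 and 57 in P56 replicate 1 and 0, 12, 41 and 89 in P56 replicate 2. The macrophages serve as a comparison with a type that should lack the genes, but not as a separate group of cells. How the UMIs came into them, free RNA and doublets included, was not tested. In single macrophages the 5 genes together made up a median of 0.972%, 1.89% and 2.48% of UMIs, but up to 7.66%, 8.49% and 9.33%, which lies in the range of Cst12/Lcn8 cells. In summed UMIs all 5 genes were at or below the macrophage level in Lcn5/Defb30 cells, and Lypd8/Defb18 cells exceeded it in Lcn8 alone, in the P56 libraries. By the median cell the share of the 5 genes was 0.991%, 1.19% and 0.460% in Lcn5/Defb30 cells, above the macrophages at P42, and 0.903%, 2.04% and 3.40% in Lypd8/Defb18 cells, above them at P56. Against endothelial cells chosen in the same way (246, 45 and 66 cells, with Lcn8 at 4438, 11216 and 10377), Lcn5/Defb30 cells were higher for 5, 0 and 0 of the 5 genes and Lypd8/Defb18 cells for 4, 1 and 5. Endothelial cells with 0, 1, 2 and 3 of the 15 markers, also ranked, numbered 2, 9, 45 and 65 at P42. They numbered 2, 5, 16 and 16 in P56 replicate 1 and 2, 5, 16 and 13 in P56 replicate 2. Cst12/Lcn8 cells were above both references for all 5 genes in every library. In all cells of the corpus and cauda the 5 genes were at 1.17 to 41.4, against 1212 to 17905 in all caput cells.

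**Figure D1:**
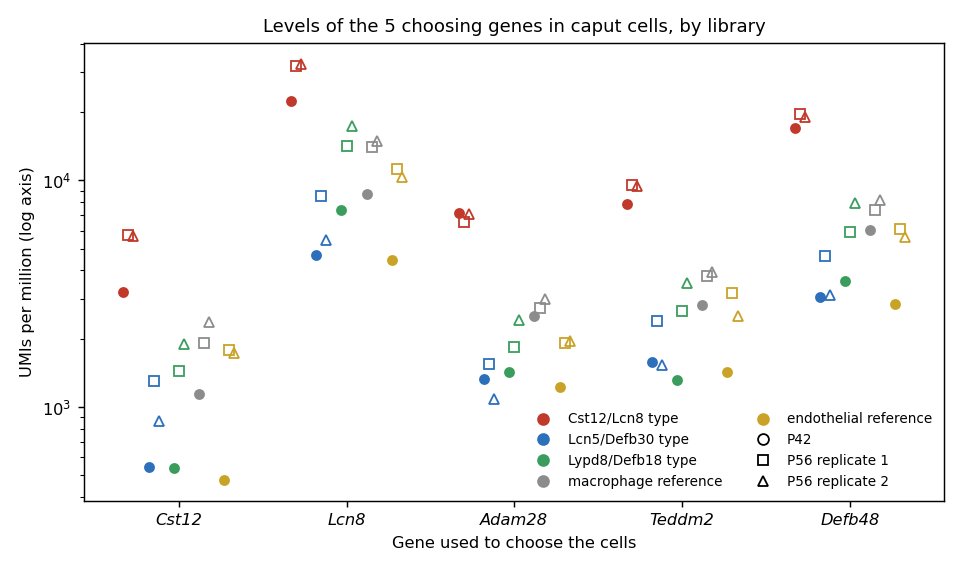
Levels of the 5 genes that chose the cells, in CPM on a log axis, for each caput library (symbols) and cell type (colours). Macrophage and endothelial reference cells, which were not kept apart from the ranked cells, stand beside them. For each of the 5 genes the Cst12/Lcn8 cells lie above every other class in each library, for example Lcn8 at 22443, 31940 and 32817 against 8713, 14013 and 14954 in the macrophages.

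The 5 genes were counted together in single cells. When each cell was thinned to 1000 UMIs, 81.0%, 91.4% and 92.1% of Cst12/Lcn8 cells held UMIs of all 5 genes (97.1%, 99.1% and 98.6% without thinning, with 2, 0 and 0 cells too shallow to thin). The same was true of 27.1%, 47.4% and 46.1% of the thinned macrophages (78.9%, 92.4% and 81.7% without thinning), a type that should lack these genes. Median depth was 8017, 6446 and 6759 UMIs per Cst12/Lcn8 cell. Within Cst12/Lcn8 cells the shares of Lcn8 and Defb48 went together most, with Spearman coefficients of 0.579, 0.238 and 0.1998 over cells, and over the 10 pairs of genes the coefficients ran from 0.163 to 0.579 at P42 and from -0.0865 to 0.238 at P56. These describe cells that share a library and differ in depth. The cells were also chosen by the summed share of these same 5 genes, with a lower limit at P42. The coefficients therefore depend on the rule, and the ages cannot be compared on them.

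In the median Cst12/Lcn8 cell the set took 5.73% of all UMIs at P42 and 7.20% and 7.30% at P56. Since the ranking was made within each library, the lowest share that was taken differed, at 3.28%, 6.10% and 6.08%. Cells just outside the limit (percentiles 65 to 70) had medians of 2.83%, 5.90% and 5.91%, and cells just inside it (70 to 75) had 3.87%, 6.28% and 6.29%. Cells at or above 3.28% made up 30.03% of the 2824 ranked cells at P42 (848 cells), a share that the percentile limit set. They made up 54.6% and 53.8% of the 4342 and 3355 ranked cells at P56 (2372 and 1804 cells). At P56, 535 and 407 of those were of no type, 376 and 394 were Lypd8/Defb18 cells and 236 and 102 were Lcn5/Defb30 cells. At P42 the limit thus fell between a low and a high group of cells, while at P56 it fell inside the high group. The share of ranked cells that were Cst12/Lcn8 cells (26.0%, 28.2% and 26.9%) is set largely by the percentile limit and is not an abundance of the type.

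**Figure D2:**
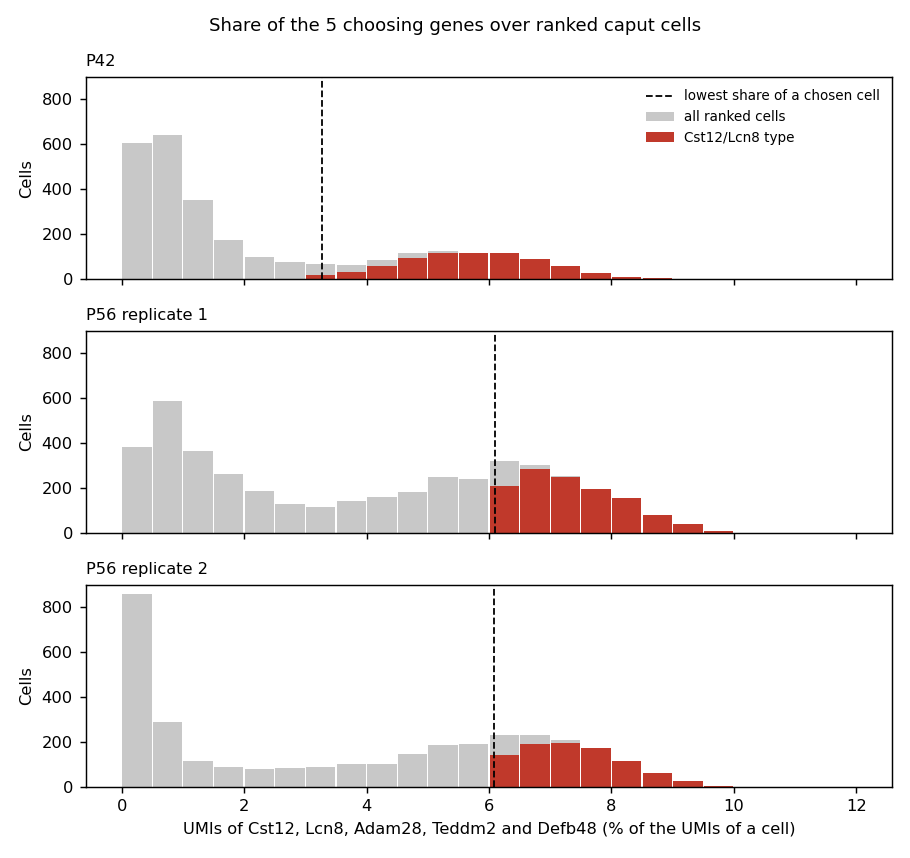
Number of ranked caput cells (grey) and of Cst12/Lcn8 cells (coloured) by the share of a cell's UMIs from the 5 choosing genes, in bins of that percentage, with 1 panel per caput library. The dashed line is the lowest share taken, 3.28% at P42 and 6.10% and 6.08% at P56, where it runs through the upper group of cells.

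The label of principal cells was checked against 12 general markers. Of these, 6 were above the macrophage reference in every library, namely Gpx5, Adam7, Cftr, Aqp9, Crisp1 and Pax8. Gpx5, a glutathione peroxidase secreted by the caput, was at 37822, 73123 and 74959 in Cst12/Lcn8 cells and at 24184, 59836 and 54013 in the macrophages. Adam7, an epididymal disintegrin, was at 5033, 5726 and 5682 in Cst12/Lcn8 cells and at 2994, 5055 and 4322 in the macrophages. Epcam and Krt18 were above that reference in 2 libraries, Krt8 and Cldn3 in 1 and Cdh1 in 0, though these genes exceeded the endothelial one in each. The sodium-proton exchanger Slc9a3 was at 0.475, 0 and 0 and above the macrophages in 0 libraries. The 10 macrophage markers summed to 349, 179 and 397 against 8029, 5028 and 3807 in the reference cells. Since those cells were chosen by macrophage markers, a gap from them was set in advance. The sums were 676, 367 and 571 in Lcn5/Defb30 cells and 377, 235 and 412 in Lypd8/Defb18 cells. No doublet caller was run, and the limit on markers of other cells was the only step against doublets. In 115, 78 and 106 cells with a Cst12 and Lcn8 percentile of at least 70 another set ranked higher, and these were left out.

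To learn what else these cells expressed, their summed UMIs were compared with those of the other 2 types within the 3 libraries, each library being a block of the fit. The 30 genes of the rule were left out. The cells had been sorted by expression in the same libraries, so the calls on other genes describe cells sorted in this way and are no independent evidence of a separate type. Calls needed an absolute log2 fold change of 1 or more together with an adjusted p (Benjamini-Hochberg) under 0.05 in edgeR's quasi-likelihood test. Against Lcn5/Defb30 cells 2649 of 13562 genes were called (19.5%), 886 higher (6.53%) and 1763 lower (13%). Against Lypd8/Defb18 cells 1151 were called (8.49%), 402 higher (2.96%) and 749 lower (5.52%). Against both, 885 genes were called in one direction (6.53%), of which 341 (2.51%) were higher and 544 (4.01%) lower. The median log2 fold change over all genes was -0.06 and -0.01, and with TMM factors set to 1 it became -0.31 and -0.11, which left 276 higher and 697 lower against both. Of the 341 higher genes, 136 were at or below the macrophage reference in both other types in every library (39.9%, against 21.6% of all genes tested), and of the 544 lower genes 471 were at or below the reference in Cst12/Lcn8 cells (86.6%, against 50.4%). Against the endothelial reference these counts were 44 (12.9%, against 26.8%) and 303 (55.7%, against 41.8%). Fewer transcripts per cell and fewer expressing cells cannot be told apart in such sums.

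**Figure D3:**
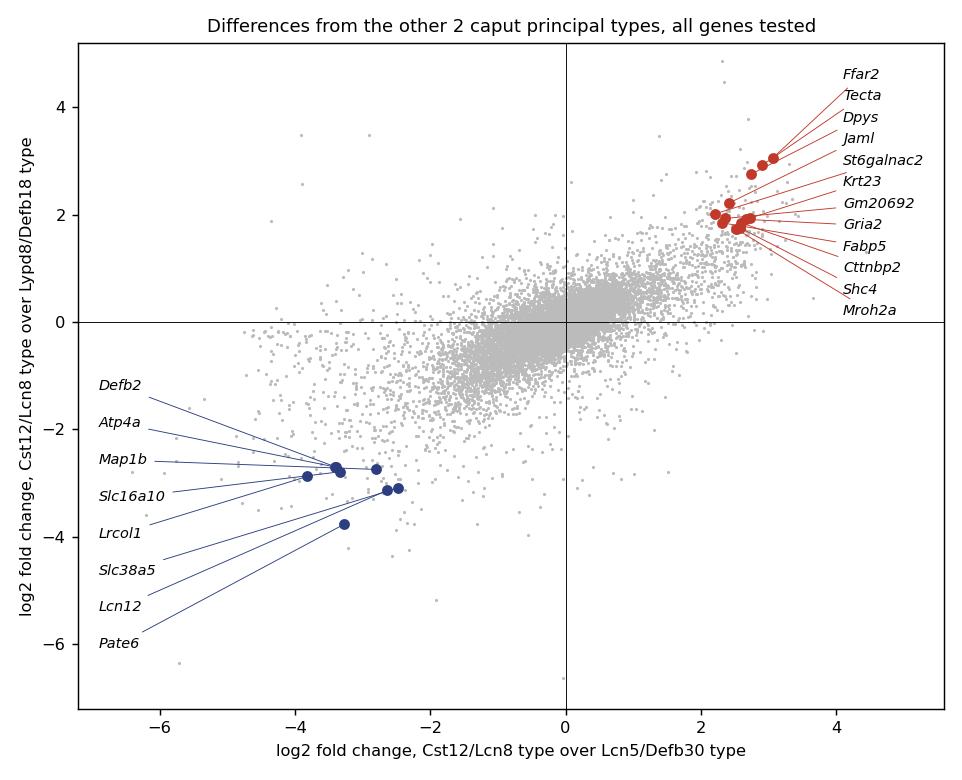
log2 fold change of each of 13562 genes in Cst12/Lcn8 cells over Lcn5/Defb30 cells (horizontal) and over Lypd8/Defb18 cells (vertical), with the 12 higher and 8 lower genes of the naming rule marked. The marked higher genes reach 3.06 and 3.05 (Ffar2), and the marked lower genes reach -3.82 (Lrcol1) and -3.77 (Pate6).

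The 12 genes that stood furthest above both other types were led by Ffar2 and Tecta. Ffar2, a receptor for short-chain fatty acids, was at 139, 132 and 120 in Cst12/Lcn8 cells, at 19.0, 23.0 and 16.1 in Lcn5/Defb30 cells and at 13.0, 19.0 and 17.0 in Lypd8/Defb18 cells. Its log2 fold changes were 3.06 (SE 0.11) and 3.05 (SE 0.11), and its level in the macrophages was 39.6, 48.03 and 42.9, so both other types lay below it. Tecta, which encodes the matrix protein alpha-tectorin known from the inner ear, was at 303, 236 and 308, against 50.5, 51.3 and 37.8 and against 26.0, 36.6 and 54.7. Its log2 fold changes were 2.91 and 2.92 (SE 0.16 each). Corpus and cauda libraries held Tecta at 0.0753 to 0.486.

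Dpys, Fabp5 and St6galnac2 were also among the 12. Dpys, the dihydropyrimidinase of pyrimidine breakdown, was at 66.3, 63.5 and 69.3 (log2 fold changes of 2.73 and 2.75). Fabp5, a fatty acid binding protein, was at 53.0, 59.1 and 71.5 (2.31 and 1.85). St6galnac2, a sialyltransferase of O-linked glycans, was at 133, 81.4 and 77.4 (2.22 and 2.01).

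The other 7 genes of the 12 were as follows. Jaml, a junctional adhesion molecule, was at 72.0, 107 and 105 (2.41 and 2.21). Krt23, a keratin, was at 298, 254 and 272 (2.73 and 1.94), and Gria2, a subunit of the AMPA glutamate receptor, was at 122, 125 and 129 (2.67 and 1.91). Cttnbp2, a cortactin binding protein, was at 114, 91.4 and 87.0 (2.59 and 1.85), and Shc4, an adaptor of receptor tyrosine kinases, was at 148, 95.1 and 113 (2.58 and 1.75). Mroh2a, a gene of HEAT repeats, was at 1320, 1258 and 1109 (2.52 and 1.74). Gm20692 was at 63.8, 66.3 and 70.8 (2.36 and 1.93), but it lies antisense within Hdhd5 and the strand of the counting was not stated, so reads of the pair cannot be told apart. Of the 12 genes, 11 were at or below the macrophage reference in both other types in every library, but 3, namely Ffar2, St6galnac2 and Cttnbp2, were so against the endothelial reference. All 12 kept both calls under every alternative tried. Their largest adjusted p in edgeR's quasi-likelihood test was 6.0e-07.

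The genes that stood furthest below both other types were led by Pate6, a member of the family of prostate and testis expressed proteins. It was at 240, 244 and 137 in Cst12/Lcn8 cells, at 2054, 2821 and 2430 in Lcn5/Defb30 cells and at 3455, 2867 and 2521 in Lypd8/Defb18 cells. Its log2 fold changes were -3.28 (SE 0.14) and -3.77 (SE 0.14), and its level was also below that of the macrophages (966, 1361 and 1073). The other 7 genes were likewise below the macrophage level in Cst12/Lcn8 cells in every library, and all 8 were also at or below the endothelial level there.

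Slc38a5, a glutamine transporter, was at 364, 254 and 139 against 2032, 1759 and 1218 and against 3140, 2013 and 1546 (-2.48 and -3.09). Slc16a10, a carrier of aromatic amino acids, was at 11.4, 8.50 and 7.79 (-3.33 and -2.79), and Atp4a, the alpha subunit of the gastric proton pump, was at 8.71, 13.9 and 8.81 (-3.41 and -2.70). Lcn12, a lipocalin, was at 74.4, 62.5 and 43.5 against 531, 452 and 397 and against 772, 523 and 415 (-2.64 and -3.14). Defb2, a beta-defensin, was at 41.8, 36.8 and 35.1 (-3.40 and -2.70). Lrcol1, whose product resembles colipase, fell most against Lcn5/Defb30 cells (-3.82, and -2.87 against the other type), and Map1b, a microtubule-associated protein, completed the 8 (-2.81 and -2.74). All 8 kept both calls under every alternative tried.

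The cystatins and lipocalins beside Cst12 and Lcn8 were called higher more often against Lcn5/Defb30 cells, where 6.53% of all genes were higher, than against Lypd8/Defb18 cells, where 2.96% were, and that difference was not tested. Of 10 cystatin genes tested, 7 rose and none fell against Lcn5/Defb30 cells (median log2 fold change 2.39, against -0.06 over all genes), and 3 rose and 1 fell against Lypd8/Defb18 cells (median 0.43, against -0.01). Cst8, a cystatin of the proximal epididymis, was at 13202, 13161 and 14483, against 3227, 3690 and 2573 and against 5126, 7086 and 8668, with log2 fold changes of 2.42 (SE 0.15) and 1.07 (SE 0.14). Cstdc2 was at 11407, 17634 and 19143 (2.49 and 1.03). Cst11 was at 10557, 10791 and 11065 and rose against Lcn5/Defb30 cells (2.37, SE 0.11), while its difference of 0.42 (SE 0.11) from Lypd8/Defb18 cells was under the limit on fold change. Csta1 was the third cystatin called higher against both, at only 7.12, 9.32 and 9.99. Cst11, Cst12, Cst8, Cstdc2 and Cst3 lie in 1 run on chromosome 2, and Cst3, which encodes the widely expressed cystatin C, was not called (0.49 and 0.19).

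Of 11 lipocalin genes tested, 7 rose and 2 fell against Lcn5/Defb30 cells (median 1.99), and 4 rose and 2 fell against Lypd8/Defb18 cells (median 0.54). Over all genes 6.53% rose and 13% fell in the first comparison and 2.96% and 5.52% in the second. Lcn9 was at 24390, 31721 and 32176, against 5210, 8583 and 5248 and against 9371, 16845 and 18659 (2.54 and 1.10). Lcn2, an iron-siderophore carrier, was at 10035, 9825 and 10291 (1.99, and 0.54, not called), and Lcn10 at 1729, 1399 and 1575 (2.57, and 0.69, not called). Lcn3 and Obp2b were also called higher against both, at levels of at most 2.24 and 6.81. Ptgds, the lipocalin-type prostaglandin D synthase, was lower, at 176, 185 and 142 against 1087, 1520 and 1583 and against 745, 733 and 678 (-2.74 and -2.01).

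Neighbouring lipocalin genes differed in these cells. Lcn8 (chr2:25653118-25656217) and Lcn5 (chr2:25657932-25662230) are 1714 bases apart, and Lcn5, one of the genes that chose the Lcn5/Defb30 cells, was at 472, 924 and 709 in Cst12/Lcn8 cells against 8222, 17626 and 22035 there. Lcn6 (chr2:25676638-25681608) was at 1741, 1210 and 1229 in Cst12/Lcn8 cells and at 2418, 2175 and 1874 in Lypd8/Defb18 cells (1.80 against Lcn5/Defb30 cells and -0.55, not called, against Lypd8/Defb18 cells). Lcn10 follows 1117 bases later, and Lcn12 and Ptgds lie upstream at chr2:25490845-25494061 and chr2:25466709-25470110. Lcn8 and Lcn5 were among the genes that chose the types, so their levels here are a description.

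**Figure D4:**
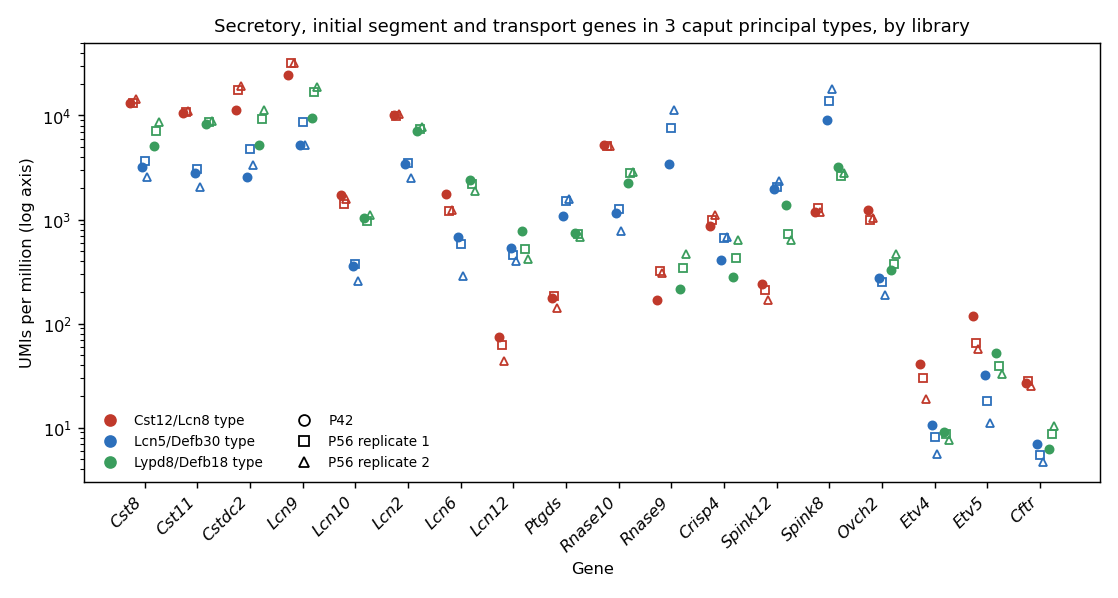
Levels of 18 secretory, initial segment and transport genes in CPM on a log axis, for each caput library (symbols) in Cst12/Lcn8, Lcn5/Defb30 and Lypd8/Defb18 cells (colours). Cst8, Lcn9, Rnase10 and Ovch2 are highest in Cst12/Lcn8 cells in every library, Rnase9 is at 167 to 317 there against 3425 to 11175 in Lcn5/Defb30 cells, and Lcn12 and Ptgds are lowest in Cst12/Lcn8 cells.

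Among beta-defensins and a list of Crisp, protease inhibitor and Ly6 genes more fell than rose against Lcn5/Defb30 cells, where 6.53% of all genes were higher and 13% lower (2.96% and 5.52% against Lypd8/Defb18 cells). Of 25 beta-defensin genes tested, 4 rose and 17 fell against Lcn5/Defb30 cells (median -1.996), and 3 rose and 5 fell against Lypd8/Defb18 cells (median -0.05). Defb25 was the only one called higher against both, at 14305, 14232 and 11029 (2.59 and 1.06). Defb15 was at 75.05, 159 and 83.9 against 1562, 3052 and 2343 and against 551, 616 and 602 (-4.14 and -2.45). Defb2, Defb10, Defb13 and Defb44-ps were also lower than both. Members of this family are similar in sequence, and reads shared between copies could be counted to either.

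Of 28 genes of a list of Crisp, Spink, Spint, Wfdc, serpin, Pate, Ly6 and Svs genes, 4 rose and 16 fell against Lcn5/Defb30 cells (median -2.26), and 3 rose and 13 fell against Lypd8/Defb18 cells (median -0.67). Crisp4, a sperm-binding secretory protein, was at 859, 995 and 1109, against 412, 661 and 683 and against 279, 431 and 631 (1.10 and 1.30), and Ly6g5b was at 2332, 2609 and 2361 (2.66 and 1.43). Spink8, a Kazal-type inhibitor, was at 1180, 1286 and 1185 against 9125, 13735 and 18101 in Lcn5/Defb30 cells (-3.14, and -1.14 against Lypd8/Defb18 cells). Spink2, Spink5, Spink11 and Spink12 were also lower than both, with log2 fold changes of -2.35 to -4.55 against Lcn5/Defb30 cells, as were Wfdc6b, Wfdc9, Wfdc11 and Wfdc16.

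Among 9 genes of the RNase A family, 1 rose and 2 fell against Lcn5/Defb30 cells, and 1 rose against Lypd8/Defb18 cells, where the shares over all genes were 6.53% higher and 13% lower and 2.96% higher. With so few members this is no result about the family. Rnase10, a proximal secretory protein, was at 5196, 5086 and 5096 (2.60 and 1.05). Rnase9 was at 167, 317 and 307 against 3425, 7621 and 11175 in Lcn5/Defb30 cells (-4.40, SE 0.13) and did not differ by the limit from Lypd8/Defb18 cells (-0.26). Of the relatives of Teddm2, Teddm1a was at 6796, 8457 and 7474 (2.45, and 0.38, not called) and Teddm1b at 40.5, 32.5 and 19.1, lower than both (-2.23 and -3.76). None of 7 further Adam and Adamts genes was called against Lypd8/Defb18 cells, and 1, Adamts1, was lower than in Lcn5/Defb30 cells (-1.04). That call was lost without the block, at a percentile of at least 90, with at most 1 marker of other cells and without P56 replicate 1.

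The calls of Cst8, Cstdc2, Rnase10, Defb25 and Etv5 against Lypd8/Defb18 cells lay close to the limit on fold change. They were lost without the P42 library, with TMM factors set to 1 and with at most 1 marker of other cells, and that of Lcn9 in the first and the last of these cases. Without the block the calls of Cst8, Cstdc2, Defb25 and Lcn9 were lost too, as were those of Spink2, Spink11, Defb13 and Defb44-ps against Lypd8/Defb18 cells. Crisp4 lost its call against Lcn5/Defb30 cells in all of these cases and at a percentile of at least 90, and that against Lypd8/Defb18 cells without the block. None of these reversed.

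Genes tied to the initial segment and to Ros1 and ERK signalling were in part higher. Over all genes 6.53% rose and 13% fell against Lcn5/Defb30 cells, and 2.96% and 5.52% against Lypd8/Defb18 cells. Of 26 genes of the pathway tested, 9 rose and 1 fell against Lcn5/Defb30 cells (median 0.46), and 3 rose against Lypd8/Defb18 cells (median 0.22). Ovch2, an ovochymase secreted in the proximal epididymis and needed for sperm maturation, was at 1243, 983 and 1026, against 273, 249 and 188 and against 326, 376 and 465 (2.51 and 1.56). Etv4, an ETS factor that ERK induces, was at 40.5, 30.2 and 18.8 (2.18 and 1.86), and its relative Etv5 was at 119, 64.7 and 56.6 (2.31 and 1.0004). Dusp6, an ERK phosphatase, was at 215, 94.8 and 97.6 (1.92, and 0.90, not called). The receptor Ros1 itself was at 43.1, 29.98 and 32.3, with differences of 0.69 (SE 0.11) and 0.62 (SE 0.11) that were under the limit. Of 10 initial segment genes tested, 6 rose and 2 fell against Lcn5/Defb30 cells (median 2.03), and 3 rose and 1 fell against Lypd8/Defb18 cells (median 0.53). Cst8, Rnase10 and Etv4 were the 3. Ggt1, a gamma-glutamyltransferase, was the 1 lower than both, at 5.38, 4.37 and 4.26 (-3.00 and -1.72).

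Transport genes held calls in both directions, against 6.53% higher and 13% lower over all genes for Lcn5/Defb30 cells and 2.96% and 5.52% for Lypd8/Defb18 cells. Of 18 ion and water transport genes, 4 rose and 7 fell against Lcn5/Defb30 cells and 2 rose and 3 fell against Lypd8/Defb18 cells. Cftr, the cystic fibrosis chloride channel, was at 26.6, 28.2 and 25.3, against 7.02, 5.43 and 4.70 and against 6.27, 8.62 and 10.5 (2.58, SE 0.18, and 1.73, SE 0.16). The carbonic anhydrase Car2 was higher as well (1.24 and 1.04), but both calls were lost with TMM factors set to 1 and that against Lypd8/Defb18 cells also without the P42 library. Car2 is also a marker of clear and narrow cells. Of 17 genes of organic transport and endocytosis, 4 rose and 7 fell against Lcn5/Defb30 cells, and 5 fell and none rose against Lypd8/Defb18 cells. Clu, the luminal chaperone clusterin, was at 824, 611 and 378 against 7662, 9183 and 8753 and against 3773, 2710 and 2495 (-3.57 and -2.25), and the endocytic adaptor Dab2 was at 105, 62.8 and 83.6 (-1.58 and -1.96).

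Over all genes 2.51% were higher and 4.01% lower than both types. Junction genes held 1 call in each direction against both among 18 tested, with Cldn1 higher (1.38 and 1.14) and Cdh16 lower (-2.38 and -1.67). Of 29 redox genes, 1 rose and 7 fell against Lcn5/Defb30 cells, and Gstm1, Gsto1 and Ggt1 were lower than both and none was higher than both. Gsto1 lost both calls without P56 replicate 1 and with at most 1 marker of other cells, while Gstm1 and Ggt1 kept theirs under every alternative. Of 35 identity factors 5 rose and 10 fell against Lcn5/Defb30 cells (median -0.33, with 6.53% and 13% over all genes), and 1 rose and 1 fell against Lypd8/Defb18 cells. Those lower than in Lcn5/Defb30 cells included Pax2 (-2.33), Sox4 (-1.33) and Hoxb4 (-1.27). Hox genes were called both ways there, with Hoxa9 (1.33), Hoxa10 (1.56) and Hoxd10 (2.17) higher and Hoxb3 (-1.07) and Hoxc4 (-1.31) lower. The calls of Hoxb3 and Hoxc4 were lost with DESeq2. Of the 35 only Esrrg was lower than both, at 1.42, 0.472 and 1.03. It lost both calls without the P42 library and without the block, and that against Lypd8/Defb18 cells with DESeq2 and without P56 replicate 1. Runx1 rose against Lcn5/Defb30 cells (1.80, and 0.83 against Lypd8/Defb18 cells, not called), and Pax8 rose against Lypd8/Defb18 cells (1.19, and 0.79, not called).

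General secretory and metabolic genes showed no calls against either type, where 19.5% of all genes were called against Lcn5/Defb30 cells and 8.49% against Lypd8/Defb18 cells. This held for 24 ER chaperones and unfolded protein response genes (medians of 0.30 and 0.20), 24 genes of secretory transport (0.44 and 0.26), 28 nuclear genes of oxidative phosphorylation (0.19 and 0.19), 10 mitochondrially encoded genes (-0.32 and -0.15) and 28 ribosomal protein genes (-0.09 and 0.19). Among 9 polyamine genes 1 fell against Lcn5/Defb30 cells, and none was called against Lypd8/Defb18 cells. The percentage of mitochondrial UMIs was 4.99%, 5.21% and 4.36% in the median Cst12/Lcn8 cell. It was lower than in Lcn5/Defb30 cells by 1.83, 2.25 and 2.73 points and lower than in Lypd8/Defb18 cells by 0.462, 0.212 and 0.513 points, in 3 of 3 libraries each. With at most 1 marker of other cells the difference from Lypd8/Defb18 cells was 0.212, -0.0621 and -0.303 points, so its direction turned at P42, whereas that from Lcn5/Defb30 cells was -1.33, -1.93 and -2.48 points. The smallest p that an exact permutation test over 3 libraries can give is 0.25.

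Transcripts of other cells moved with these comparisons, and their part in the results was not tested. The 5 erythroid markers summed to 5983, 1181 and 2901 in Cst12/Lcn8 cells, 23623, 3681 and 5398 in Lcn5/Defb30 cells and 7619, 1932 and 4055 in Lypd8/Defb18 cells, and 4 of 4 tested were lower than in Lcn5/Defb30 cells. The 8 endothelial markers summed to 91.0, 19.6 and 33.3 against 267, 71.2 and 108 in Lcn5/Defb30 cells (7 of 8 lower). Of 10 sperm markers 5, and of 7 ciliated cell markers 2, were lower there too, against 13% of all genes. The calls of the 4 erythroid genes, of the ciliated cell genes Tppp3 and Dynlrb2 and of the sperm genes Tnp1 and Tnp2 were lost without the block and at a percentile of at least 90, and without the block those of 6 of the 7 endothelial genes, all but Egfl7, were lost too. The 8 basal markers summed to 520, 376 and 358 against 272, 186 and 173 and against 216, 168 and 215, and the 2 members called higher than both were Apoc1 (422, 332 and 302 in Cst12/Lcn8 cells) and Cldn1, while Ly6d, Col17a1 and Krt15 were lower than in Lcn5/Defb30 cells (median of the list -0.36). Of the defining basal keratins, Krt5 was at 18.8, 6.25 and 8.81 and Krt14 at 23.4, 13.9 and 7.64. Both were among the 15 marker genes used to set cells aside, so their levels are a description and no check. For fibroblasts and myoid cells, 9 markers summed to 1158, 326 and 391 against 2515, 592 and 513 in Lcn5/Defb30 cells (median -0.60), with 1, Pdgfra, called higher than there. For clear and narrow cells 7 summed to 460, 288 and 403 (1 higher and 3 lower than in Lcn5/Defb30 cells), and for lymphocytes 8 summed to 16.1, 21.7 and 35.4.

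The cells with the highest Cst12 and Lcn8 percentile differed by degree from those near the limit. From percentiles 70 to 80, over 80 to 90, to 90 to 100, the median percentage of mitochondrial UMIs was 5.19%, 5.35% and 4.48% at P42, 5.71%, 5.34% and 4.55% in P56 replicate 1 and 5.14%, 4.46% and 3.78% in P56 replicate 2. Over the same steps Tecta was at 234, 264 and 377, at 207, 235 and 261, and at 283, 280 and 352. Pate6 was at 287, 288 and 172, at 279, 253 and 205, and at 191, 127 and 107. Apoe, a lipid carrier abundant in macrophages and stroma, fell in parallel, from 1142 to 555, from 506 to 293 and from 694 to 340. Gpx5 was at 30131, 37545 and 42568 at P42, whereas at P56 it lay between 72299.8 and 76898 in every step. These values are a description, since the percentile comes from the same cells.

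The 2 ages were then compared in Cst12/Lcn8 cells, with the spread estimated from the caput, corpus and cauda libraries together. There was 1 P42 library, which was assumed to vary like the P56 libraries, and the limit on the share of the choosing genes was lower at P42 (3.28% against 6.10% and 6.08%). Of 18561 genes 87 were called (0.469%), 24 higher at P56 (0.129%) and 63 lower (0.339%). With TMM factors set to 1 the median over all genes moved from 0 to -0.32 and 27 were higher and 404 lower. Without P56 replicate 1, 45 were higher and 22 lower, and without P56 replicate 2, 3 and 8. At a percentile of at least 90, 13 genes were called, and with at most 1 marker of other cells 7.

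Crisp1, the cysteine-rich secretory protein of the epididymis, was at 94.2 at P42 and at 385 and 475 at P56. Its log2 fold change was 2.58 (SE 0.23, adjusted p 0.0044 by edgeR's quasi-likelihood test), and the call was kept under every alternative. Crisp1 was also higher at P56 in the macrophage reference (65.7, 227.5 and 359), and its level in the corpus was 6861 at P42. Ces5a, an epididymal carboxylesterase, was at 32.1, 55.2 and 55.7 (1.18), and Cd52, a surface glycoprotein that coats sperm, at 314, 523 and 558 (1.18). Lamp1, a lysosomal membrane protein, was at 40.1, 57.8 and 74.3 (1.11), Mtch1, a mitochondrial carrier homologue, at 33.9, 68.0 and 112 (1.79), and the non-coding Snhg20 at 46.7, 78.0 and 78.7 (1.14). Gm6204 (17.3, 86.4 and 66.0) and Cd63-ps (83.3, 307 and 245) are pseudogenes whose reads may come from their parent genes, and Gm6204 was at 19.3, 93.5 and 67.9 in the macrophages. The calls of these 7 genes were lost without P56 replicate 2, at a percentile of at least 90 and with at most 1 marker of other cells. All but that of Mtch1 were lost without P56 replicate 1 too. With TMM factors set to 1 those of Ces5a, Cd52, Snhg20 and Lamp1 were lost as well.

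Of the 63 genes lower at P56, 13 were in a list of dissociation and stress genes. The list holds immediate early genes, which cells also induce during dissociation, and others such as the heat shock gene Hspb1. In that list of 21 genes 13 fell and none rose (median log2 fold change -1.78, against 0 over all genes), where 0.339% of all genes fell and 0.129% rose. Fos was at 1212, 238 and 162, Egr1 at 286, 39.5 and 36.4, Fosb at 63.0, 8.14 and 4.99 and Dusp1 at 195, 33.9 and 29.97 in Cst12/Lcn8 cells. Their log2 fold changes were -2.19, -2.51, -2.84 and -2.21, and the others called were Jun, Junb, Ier2, Atf3, Nr4a1, Zfp36, Btg2, Socs3 and Klf6. Without P56 replicate 2 the calls of Fos, Fosb and those 9 were lost, while Egr1 and Dusp1 kept theirs. Dusp1 lost its call at a percentile of at least 90 and with at most 1 marker of other cells. With at most 1 such marker Fos, Jun, Junb, Nr4a1, Zfp36, Btg2, Socs3 and Klf6 lost theirs too. The sum of the 21 genes was 7062, 2041 and 1897 in Cst12/Lcn8 cells, 11361, 3028 and 3128 in Lcn5/Defb30 cells, 8826, 2384 and 2526 in Lypd8/Defb18 cells and 19873, 6974 and 6552 in the macrophage reference. All 21 were lower in both P56 libraries in each of these 4 classes. The share over all genes tested was 64.1%, 59.2%, 61.5% and 49.3% in these classes, in the same order. In the endothelial reference 19 of the 21 were lower (90.5%, against 44.9% of all genes), in the corpus 14 (66.7%, against 74.5%) and in the cauda 16 (76.2%, against 70.4%).

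**Figure D5:**
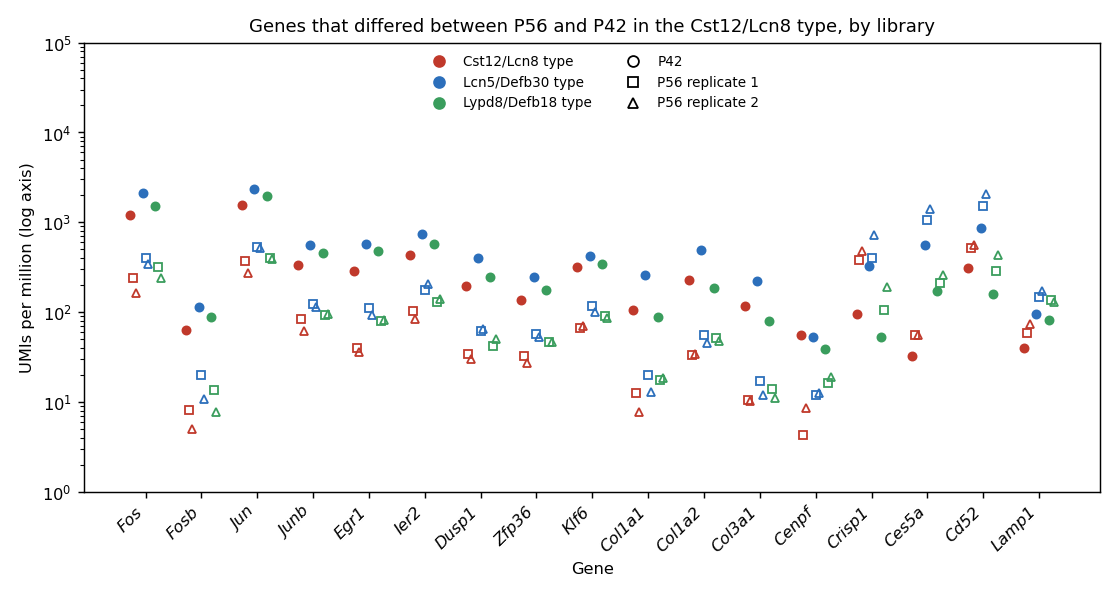
Levels of 17 genes called between P56 and P42 in Cst12/Lcn8 cells, in CPM on a log axis, for each caput library (filled symbols for P42, open for P56) in the 3 types (colours). Fos, Egr1 and the collagens lie higher at P42 in all 3 types, and Crisp1 lies at 94.2 at P42 and at 385 and 475 at P56 in Cst12/Lcn8 cells.

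The collagens Col3a1 (118, 10.5 and 10.3), Col1a1 (105, 12.5 and 7.64) and Col1a2 (226, 33.6 and 34.5), products of fibroblasts, were lower at P56. Their log2 fold changes were -3.11, -2.97 and -2.34. Each of these calls was lost when either P56 library was left out. They were also lost at a percentile of at least 90 and with at most 1 marker of other cells. The 9 fibroblast and myoid markers together were at 7446, 1388 and 1341 in ranked cells of no type, so these UMIs moved in the same direction outside the Cst12/Lcn8 cells. Aldh1l1, a folate enzyme, was at 50.2, 0 and 0.588 in Cst12/Lcn8 cells, at 19.0, 0.465 and 0.723 in Lcn5/Defb30 cells and at 21.7, 0 and 0.284 in the macrophages. Cenpf, a kinetochore protein of dividing cells, was at 55.1, 4.25 and 8.67 (-2.73), a call lost at a percentile of at least 90 and with at most 1 marker of other cells. Transcripts of other cells differed between the ages as well, and their part was not tested. The 10 sperm markers summed to 24.7, 53.3 and 311 in Cst12/Lcn8 cells and to 375, 494 and 2277 in ranked cells of no type, with none called (median log2 difference 3.48). The medians were -1.61 over 8 endothelial, -1.60 over 7 ciliated and -1.33 over 5 erythroid markers, and again none was called. Of 12 cystatin, 11 lipocalin, 27 beta-defensin, 10 RNase and 32 Crisp to serpin genes tested, 1, Crisp1, was called between the ages. Over all genes 0.469% were called, so this is no result about these lists. The medians over the cystatins, lipocalins and beta-defensins were 0.51, 0.29 and 0.58, and Lcn9, Cst8 and Gpx5 had differences of 0.78 (SE 0.49), 0.46 (SE 0.35) and 1.36 (SE 0.71) that did not pass the test.

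Whether an age difference was of another size in Cst12/Lcn8 cells than in the other 2 types was tested as an interaction with the library as a block. Of 14584 genes 3 were called (0.0206%), 1 with a more positive log2 difference in Cst12/Lcn8 cells (0.00686%) and 2 with a more negative one (0.0137%). Crisp1 rose more in Cst12/Lcn8 cells (94.2, 385 and 475) than in Lcn5/Defb30 cells (326, 402 and 723) and Lypd8/Defb18 cells (52.8, 107 and 192), by a log2 difference of 1.17 (SE 0.17, adjusted p 0.0065 by edgeR's quasi-likelihood test). Iapp, which encodes the peptide hormone amylin, was at 26.8, 2.24 and 2.50 in Cst12/Lcn8 cells, and Cenpf differed more between the ages than in the other types (-1.45). At a percentile of at least 90 the differences of Iapp and Cenpf turned, to 0.76 for Iapp and 1.38 for Cenpf, against -3.12 and -1.45. With DESeq2 no gene was called, and 55 genes had an unadjusted p under 0.05, against 788 with edgeR.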

How the data were processed

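Of 9 single-cell RNA-seq libraries, the 3 of the caput gave the cell types. Reads were trimmed by the authors with fastp, and they extracted barcodes and UMIs with UMI-tools, mapped the reads with STAR 2.7.3a to GRCm38.p6, assigned them to genes with featureCounts and deposited raw UMI counts per gene and barcode in 1 table that had not been normalized. A test of every value found whole numbers alone, with 307987941 UMIs of 32195 genes in 44869 barcodes. Where reads were shared between copies of a gene, or lay antisense, the counting could affect the levels.

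The members and the gene lists were chosen with earlier results of these data known. UMI counts were summed per library and cell type and tested with edgeR 4.0.16 (R 4.3.3, limma 3.58.1) by the quasi-likelihood test after filterByExpr, with TMM scaling and Benjamini-Hochberg adjustment. Standard errors were derived from the F statistic. Types were compared with the library as a block, since the 3 types of a library share mice and chip. Deviations from the type means over 7040 genes correlated within all 9 pairs of sums from one library (0.526 to 0.814), against -0.639 to 0.239 for 18 pairs from different libraries. Without the replicate block 1915, 704 and 548 genes were called against Lcn5/Defb30 cells, Lypd8/Defb18 cells and both, instead of 2649, 1151 and 885. The ages were compared by a fit of segment by age means, and the corpus and cauda sums only lent their spread. Its 3 residual degrees of freedom come from the P56 pairs of the caput, corpus and cauda, which are from the same 2 pools of mice but were treated as independent. With the caput alone, and 1 residual degree of freedom, 113 genes were called (38 higher, 75 lower).

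Named genes were the 12 higher and 8 lower than both types with the largest smaller fold change, the same direction in every library and at least 50 CPM in the higher type, and for age the 8 higher and 8 lower with the largest change. Listed genes and genes called by the interaction were named as such, and the limit on level was also met in every library. When 200 genes were changed by 2 on the log2 scale in simulated counts, 200 and 199 genes were recovered between the types, 145 between the ages and 188 for the interaction, with 2, 1, 11 and 6 false calls. The simulated counts came from a mean per gene scaled by library size and held no shared deviation of a library. Genes with the lowest mean counts were not among those changed. These numbers therefore do not measure how the tests perform on the real sums. Alternatives were DESeq2 1.42.0, TMM factors set to 1, no filter on low counts, no block, stricter limits on cells, mitochondrial genes left out, the caput alone and each library left out. Barcodes that 2 libraries share numbered 1 to 27 per pair of libraries. Levels and figures were made with Python 3.11.15, matplotlib 3.10.9, pandas 2.3.3, scipy 1.17.1 and numpy 2.4.6. Promoter windows and gene positions came from RefSeq tables of GRCm38.p6, the build of the counts. The result for 1 further gene is not reported here.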

Additional observations from a re-analysis of the deposited data

Results flagged for a closer look

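The difference between the ages was of another size in Cst12/Lcn8 cells than in the mean of Lcn5/Defb30 and Lypd8/Defb18 cells for 3 genes, by the interaction term of a quasi-likelihood test in edgeR (p adjusted by Benjamini-Hochberg). Iapp differed by -3.12 on the log2 scale (SE 0.40, adjusted p 0.0022), with levels of 26.8, 2.24 and 2.50 CPM in Cst12/Lcn8 cells, 9.36, 6.05 and 24.8 in Lcn5/Defb30 cells and 14.2, 4.71 and 7.81 in Lypd8/Defb18 cells at P42 and in P56 replicates 1 and 2. Cenpf differed by -1.45 (SE 0.24, adjusted p 0.018), with 55.1, 4.25 and 8.67 in Cst12/Lcn8 cells, 52.3, 11.9 and 12.5 in Lcn5/Defb30 cells and 39.3, 16.4 and 19.2 in Lypd8/Defb18 cells. Crisp1 differed by 1.17 (SE 0.17, adjusted p 0.0065), with 94.2, 385 and 475 in Cst12/Lcn8 cells. In ranked cells of no type, outside the test, Crisp1 was at 55.1, 268 and 482. Each of the 3 differences rests on 1 P42 library, and Cenpf and Iapp changed sign when cells with a percentile of at least 90 were taken.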

How the results depend on the processing

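All 20 genes named for the comparison with both types kept both calls under every alternative tried. Calls were also kept for 119 of 174 and 53 of 78 named or listed genes called against Lcn5/Defb30 and Lypd8/Defb18 cells. These counts cover only the alternatives in which a gene was tested, and Hoxd10, for example, was tested in 8 of 11. Without the replicate block the calls against Lypd8/Defb18 cells fell to 704 (264 higher, 440 lower) and against both to 548, and leaving out 1 library gave 2263 to 2513, 891 to 1135 and 693 to 836 calls against Lcn5/Defb30 cells, Lypd8/Defb18 cells and both. TMM factors set to 1 moved the share of higher genes among the calls from 33.4% to 20.8% against Lcn5/Defb30 cells, from 38.5% to 28.4% against both and from 27.6% to 6.26% between the ages. The 87 age calls became 284 with DESeq2 (138 higher), 431 with TMM factors set to 1, 152 with no filter, 13 at a percentile of at least 90 and 7 with at most 1 other marker, and 11 to 67 without 1 P56 library (11 without replicate 2, and 45 higher and 22 lower without replicate 1). Of 16 genes named for age, Crisp1, Aldh1l1 and Egr1 kept their calls throughout. The 3 interaction calls became 0 with DESeq2, 5 with TMM factors set to 1 and 6 at a percentile of at least 90, where Iapp (0.76) and Cenpf (1.38) reversed. The sperm genes Tnp1 (0.48) and Tnp2 (0.20) also reversed there against Lcn5/Defb30 cells. The mitochondrial difference from Lypd8/Defb18 cells was -0.218 points at that percentile, -0.575 with UMIs summed and, in an alternative chosen after seeing the data, -0.051 with at most 1 other marker. The cause of these changes was not tested. No paired analysis was possible for the ages because pools of different ages share no mice. The members numbered 283, 433 and 334 at a percentile of at least 90 and 264, 673 and 328 with at most 1 other marker. Genes under about 10 CPM rest on few UMIs, and 1 P42 library limits every age result.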
